A study of Mus musculus with 6 samples.

Results

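Genes of protein folding and of the unfolded protein response were examined in brain samples from mice that lack Pla2g2e and from wild-type mice. The set was a list of 40 gene names, and every array probe that carried one of these names was taken, whatever its value. Of the 40 names, 39 were found, with 55 probes of 39429 on the array, among 29608 genes in all. The remaining name, Hspa1b, is covered by a probe named for its near-identical neighbour Hspa1a. By role, 12 measured genes act in the cytosol and nucleus, 3 in mitochondria and 14 in the endoplasmic reticulum (ER), and 10 belong to the regulators and targets of the unfolded protein response and of the integrated stress response.

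The samples were 3 from Pla2g2e knockout (KO) and 3 from wild-type (WT) brain, all male, on the C57BL/6N background, each hybridised to its own 1-colour Agilent array. Pla2g2e encodes a secreted phospholipase A2. Titles call all 6 samples sham-operated, whereas the treatment text attached to each describes 60 min of middle cerebral artery occlusion, and the groups here follow the titles. The labels give neither the age of the mice nor the part of the gene that was deleted. They also leave unsaid whether each sample is a separate mouse, and the p-values below therefore cover the variation among these 6 samples, possibly technical, and nothing wider.

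Chaperones bind unfolded proteins and help them fold. In the cytosol, heat shock raises chaperone levels through the transcription factor HSF1. In the ER, unfolded proteins are sensed by IRE1 (encoded by Ern1), ATF6 and PERK. IRE1 splices the Xbp1 mRNA, ATF6 is cut to release a transcription factor, and PERK slows translation while ATF4 is made. PERK shares that last arm, the integrated stress response, with kinases that sense amino acid lack, viral RNA and haem lack. Neurons and myelin-forming oligodendrocytes carry a heavy load of folding in the ER, and chaperone levels in brain are known to react to heat and ischemia.

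The promoters of the members were read for elements of both stress responses. RefSeq windows (GRCm38.p6) of the 250 bases before the transcription start were available for 31 of the 40 names. Missing were Hspa8, Hspa9, Hsp90aa1, Hsp90ab1, Cryab, Hsf1, Atf6, Manf and Hyou1. The ER stress element, the sequence through which ATF6 acts, was searched on both strands as CCAAT and CCACG held 9 bases apart. This form was present in 37 of 32851 promoters of the whole table (0.113%) and in those of 7 member genes. All 7 were among the 12 ER genes with a window. Other forms of the element were not searched. The complete window of Hspa5, which encodes the ER Hsp70 known as BiP, is printed first (chr2:34771840-34772089, plus strand), because BiP is the classical target of this response. The elements of the other genes follow with 8 bases on each side, read in the direction of the motif. Capitals mark the element.
Hspa5: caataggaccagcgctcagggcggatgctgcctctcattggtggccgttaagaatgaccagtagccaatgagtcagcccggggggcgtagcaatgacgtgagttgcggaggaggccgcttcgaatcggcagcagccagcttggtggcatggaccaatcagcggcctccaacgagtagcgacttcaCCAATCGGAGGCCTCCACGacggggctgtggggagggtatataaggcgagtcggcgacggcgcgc
Calr, chr8:84847067-84847101, plus strand: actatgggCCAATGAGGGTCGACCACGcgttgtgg
Canx, chr11:50325792-50325826, minus strand: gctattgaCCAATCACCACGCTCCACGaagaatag
Creld2, chr15:88819512-88819546, minus strand: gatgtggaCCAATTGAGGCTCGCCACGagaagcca
Dnajc3, chr14:118937819-118937853, plus strand: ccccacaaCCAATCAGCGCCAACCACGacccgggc
Pdia6, chr12:17266483-17266517, plus strand: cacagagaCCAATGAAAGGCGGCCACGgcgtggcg
Hsp90b1 first element, chr10:86705630-86705664, minus strand: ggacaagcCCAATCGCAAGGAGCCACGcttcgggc
Hsp90b1 second element, chr10:86705525-86705559, plus strand: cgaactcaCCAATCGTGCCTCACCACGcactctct

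The heat shock element, the binding sequence of HSF1, was searched in its 2-unit form as GAANNTTC or TTCNNGAA. This short form was found in 12.8% of all promoters and in those of 7 members, namely Hspa1a, Hspa1b, Dnaja1, Hsph1, Hspd1, Hspe1 and Asns. The 3-unit form adds a further GAA or TTC at the same spacing of 2 bases and so contains the 2-unit form. It was found in 0.466% of all promoters and, among the members, in the single stretch that lies between the divergent genes Hspd1 and Hspe1, which encode the mitochondrial chaperonin and its cofactor. The UPR element TGACGTGG was in 0.563% of all promoters and in no member window. These matches are descriptions of letters in a window. The examples below are the elements of the main heat-inducible Hsp70 pair, of Hsph1 and Dnaja1, which help Hsp70 work, and of the mitochondrial pair, with capitals over the element. In the stretch of the mitochondrial pair the capitals cover 18 bases, made up of 2 overlapping matches to the 3-unit form.
Hspa1a, chr17:34972245-34972268, minus strand: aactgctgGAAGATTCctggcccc
Hspa1b, chr17:34959327-34959350, minus strand: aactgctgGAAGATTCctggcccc
Hsph1, chr5:149636354-149636377, minus strand: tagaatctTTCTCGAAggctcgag
Dnaja1, chr4:40722336-40722359, plus strand: agcctctaGAAAATTCtacgaggc
Hspd1 and Hspe1, chr1:55088051-55088084, minus strand: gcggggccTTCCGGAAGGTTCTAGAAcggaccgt

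The windows of Hspa1a and Hspa1b were identical at 247 of 250 bases. The array could not tell the pair apart either. Its probe named Hspa1a (mm9 chr17:35107117-35107176, minus strand) lists transcripts of both genes, so its value may hold RNA from either. Its 60 bases are printed here because, among the brightest tested probes of the members, the widest range over the arrays rests on them.
Hspa1a probe: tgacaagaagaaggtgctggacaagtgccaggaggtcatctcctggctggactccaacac

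Each array held 43020 non-control spots, of which 82.0% to 85.3% were well above background and 0 were saturated. Over the probes well above background on all 3 arrays of either genotype, correlations were 0.993 to 0.998 within a genotype and 0.991 to 0.996 between genotypes. The arrays lay on 2 slides, with KO 1 and all WT samples on slide 1 and KO 2 and KO 3 on slide 2. The neuronal markers Rbfox3, Snap25, Syt1 and Map2 were above the 75th percentile of the probes on every array. Both probes for Pla2g2e were dim in both genotypes, with differences of 0.33 ± 0.18 and −0.59 ± 0.27 (log2, SE, n = 3 each), and since the deleted part is unknown they check no label.

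All values below are signals on a log2 scale, given relative to the 75th percentile of the probes on the same array, so that 0 is that percentile. A difference is the KO mean minus the WT mean on that scale. Signals of different probes depend on their sequences and are not compared with each other. Levels were counted by the brightest tested probe of each gene, a choice that favours high values. Of the 39 measured genes, 30 lay above 0 on every array and 5 below 0 on every array (Atf6, Ern1, Hyou1, Pdia4 and Trib3). The other 4 were on both sides (Bag3, Ddit3, Hspa1a and Sdf2l1). Above 0 throughout were 10 of 12 cytosolic genes, 3 of 3 mitochondrial genes, 11 of 14 ER genes and 6 of 10 regulators. The same share over all genes is not given. Dimmer tested probes of Atf4, Dnaja1 and Dnajb9 lay below 0 on every array, with KO means of −0.89, −1.80 and −2.74 and WT means of −0.97, −1.84 and −3.08. All 39 genes passed the filter on dim probes.

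No member differed between KO and WT brain past the threshold. With limma and Benjamini-Hochberg adjustment over 23851 genes, 0% of all genes (0) and 0 of 39 members had an adjusted p under 0.05, and the smallest adjusted p of a member was 0.331, for Ddit4. At an unadjusted p under 0.05 there were 12.5% of all genes (3.12% higher and 9.38% lower in KO) and 1 member, Ddit4, which was lower. The groups did not overlap for 19.7% of all genes (7.56% higher and 12.1% lower in KO) and for 4 members (10.3%), of which Hsf1, Xbp1 and Chac1 were higher and Ddit4 was lower. The members' share was below that of all genes by both counts. In direction, 23 members were higher and 16 lower in KO, with a median difference of 0.028, against −0.014 for all genes. That balance depended on single WT samples, on the scaling and on which KO samples were compared. Without WT 2, 34 members were higher and 5 lower, and without WT 1, 18 were higher and 21 lower. With all samples kept, median centring gave 34 higher and 5 lower. The fit with slide as a fixed block and the values within slide 1 are the same comparison, KO 1 against the WT samples. It gave 18 higher and 21 lower, and an effect of slide cannot be told apart there from leaving out KO 2 and KO 3.

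**Figure D1:**
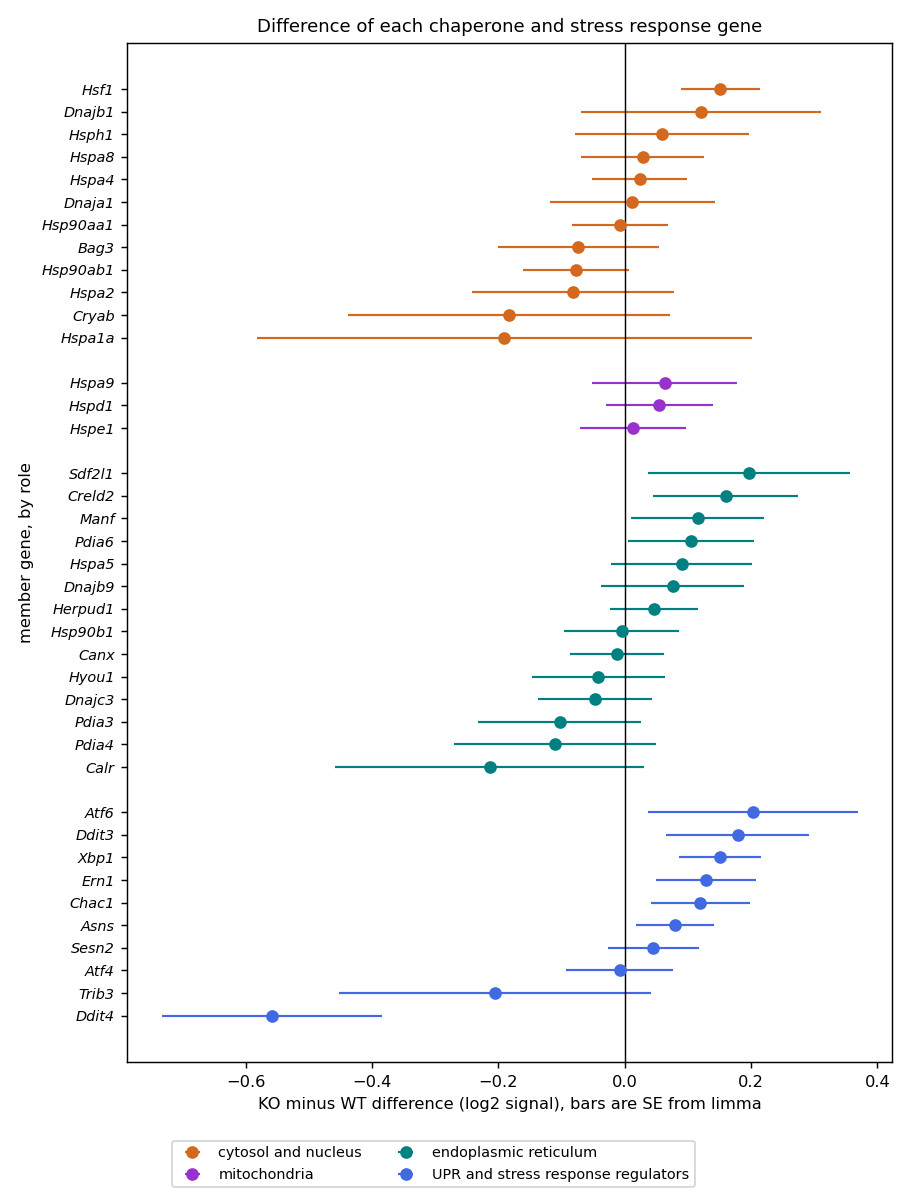
Difference between KO and WT (horizontal axis, log2 signal) for each of the 39 measured genes, ordered within role. Points are the KO mean minus the WT mean and bars are the SE from limma with 3 samples per group. Ddit4, at −0.56, lies apart from the other members, which range between −0.21 and 0.20.

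The genes of the cytosol and nucleus showed no common shift. Of 12, 6 were higher and 6 lower in KO, with a median difference of 0.0024 and a range from −0.19 to 0.15. Hsf1, the master regulator of the heat shock response, was at 0.86, 0.90 and 0.88 in KO 1 to 3, against 0.66, 0.75 and 0.78 in WT 1 to 3. The KO samples lay close together and all above the WT samples. The difference was 0.15 ± 0.06 (SE, adjusted p = 0.402 by limma), and it was 0.13 when KO 1 alone was set against the WT samples of the same slide.

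Of the cytosolic Hsp70 genes, Hspa1a and Hspa8 are given in full. Hspa1a, the strongly heat-inducible Hsp70, was at −0.95, −1.32 and −0.79 in KO samples, against −1.40, 0.05 and −1.13 in WT samples. WT 2 stood far above the other 5 samples, which overlapped. The difference was −0.19 ± 0.39 with all samples and 0.25 without WT 2. Hspa8, the constitutive Hsp70 of neurons and other cells, was at 5.91, 6.23 and 6.09 in KO samples and at 6.05, 6.10 and 5.99 in WT samples. The WT samples lay within the spread of the KO samples, and the difference was 0.03 ± 0.10.

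The Hsp90 pair, which matures kinases and steroid receptors, varied little by the brightest probe of each gene. A second, dim Hsp90aa1 probe was well above background on 2 KO and 0 WT arrays and was not tested. Hsp90aa1, the inducible form, was at 5.27, 5.28 and 5.22 in KO samples, against 5.17, 5.38 and 5.24 in WT samples. Hsp90ab1, the constitutive form, was at 6.07, 6.24 and 6.12 in KO samples, against 6.14, 6.34 and 6.19 in WT samples. For both genes WT 2 was the highest sample and the groups overlapped, with differences of −0.0073 ± 0.076 and −0.08 ± 0.08. The remaining cytosolic genes had differences between −0.18 for Cryab, a small heat shock protein abundant in oligodendrocytes, and 0.12 for Dnajb1, the Hsp40 partner of Hsp70. Without WT 2 that of Cryab was 0.09, and without WT 1 that of Dnajb1 was −0.02. With all samples, the others between them were Hspa2 (−0.08), Bag3 (−0.07), Dnaja1 (0.01), Hspa4 (0.02) and Hsph1 (0.06), and none had groups that did not overlap.

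The 3 mitochondrial chaperones were all slightly higher in KO by the brightest tested probe of each gene. Hspa9, the mitochondrial Hsp70, differed by 0.06 ± 0.11. Hspd1, the Hsp60 chaperonin, differed by 0.06 ± 0.09, and its cofactor Hspe1 by 0.01 ± 0.08. Each difference was smaller than its error, and by these probes all 3 genes were highest on WT 2. Dimmer tested probes of Hspe1 differed by −0.07 and 0.05, and the mean over its probes by −0.0023.

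The ER genes were also evenly divided, with 7 higher and 7 lower in KO, a median difference of 0.021 and a range from −0.21 to 0.20. Hspa5 was at 4.90, 4.87 and 4.84 in KO samples, against 4.55, 4.85 and 4.94 in WT samples. WT 1 was the low sample and WT 3 the high one, with the KO samples between them. The difference of 0.09 ± 0.11 became −0.02 without WT 1. Calr, the calcium-binding lectin chaperone calreticulin, was at 2.45, 2.55 and 2.38 in KO samples, against 2.21, 3.20 and 2.61 in WT samples. WT 1 was the lowest and WT 2 the highest of all 6, and the difference of −0.21 ± 0.24 became 0.05 without WT 2.

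Of the smaller ER genes induced by stress, 4 were among the members with the smallest p-values. Creld2, a chaperone-like ER protein, was at 2.57, 2.61 and 2.71 in KO samples, against 2.28, 2.46 and 2.68 in WT samples. Sdf2l1, a partner of BiP, was at 0.21, 0.00072 and 0.20 in KO samples, against −0.39, 0.17 and 0.04 in WT samples. In both genes WT 1 was the lowest sample and the groups overlapped. Manf, a secreted protective factor held in the ER, was at 1.45, 1.34 and 1.52 in KO samples, against 1.17, 1.49 and 1.30 in WT samples. Pdia6, a disulfide isomerase, was at 4.54, 4.57 and 4.54 in KO samples, against 4.25, 4.48 and 4.60 in WT samples. WT 1 was again the lowest. The differences of the 4 genes were 0.16 ± 0.11, 0.20 ± 0.16, 0.12 ± 0.10 and 0.11 ± 0.10 in the order named, with adjusted p-values from 0.585 to 0.677 by limma. Without WT 1 they were 0.06, 0.03, 0.04 and 0.01.

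The other 8 ER genes differed by −0.11 to 0.08. They are Hsp90b1 (−0.0047), the ER Hsp90, Canx (−0.01), the membrane-bound partner of calreticulin, Hyou1 (−0.04), a large ER Hsp70, and Dnajc3 (−0.05) and Dnajb9 (0.08), both Hsp40 partners of BiP. The disulfide isomerases Pdia3 and Pdia4 differed by −0.10 and −0.11, and Herpud1, a factor of ER-associated degradation, by 0.05. Hyou1 had no usable spot on KO 3 and Canx none on WT 3, so their fits rest on 5 samples. The 7 genes whose window matched the searched form of the ER stress element split into 3 higher and 4 lower, with a median of −0.0047. The 5 ER genes whose window held no match to that form split into 3 and 2, with a median of 0.046. Their windows were not searched for other forms.

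The regulators and targets of the unfolded protein and integrated stress responses included Ddit4, the gene with the set's widest difference. The next widest was that of an ER gene, Calr (−0.21). Of the 10 regulators, 7 were higher and 3 lower in KO, with a median of 0.10 and a range from −0.56 to 0.20. Ddit4, which encodes the mTORC1 inhibitor REDD1 and is induced by ATF4, hypoxia and glucocorticoids, was at 3.04, 2.74 and 2.79 in KO samples, against 3.48, 3.08 and 3.69 in WT samples. All KO samples lay below all WT samples, though KO 1 and WT 2 were nearly equal. The KO mean was 0.679 times the WT mean, and the difference of −0.56 ± 0.17 (adjusted p = 0.331 by limma, unadjusted p = 0.0189) was −0.38 between KO 1 and the WT samples of its slide.

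Markers of brain regions and of tissues beside the brain also averaged lower in KO. Relative to the WT mean, the 6 striatal markers had medians of −1.01, −0.87 and −0.87 on KO 1 to 3, against −0.30, −0.80 and 1.11 on WT 1 to 3. All 6 of them, all 5 markers of meninges, all 4 of choroid plexus and all 4 of blood leukocytes had negative differences, and all 5 immediate early genes had positive ones. In the WT samples Ddit4 and the striatal median had the same order, with WT 3 highest and WT 2 lowest. The medians of the meningeal and leukocyte markers had that WT order too. In the KO samples the order differed for the striatal and meningeal medians, as KO 1 was highest for Ddit4 and lowest for both medians. The leukocyte median kept the order of Ddit4 in the KO samples too, at −0.095, −0.62 and −0.59 on KO 1 to 3. The choroid plexus median also had that KO order (−0.0043, −0.91 and −0.81). In the WT samples it was lowest on WT 2, with WT 1 (0.567) just above WT 3 (0.555). The 4 neuronal markers differed by −0.005 to 0.06. The part of tissue make-up in the Ddit4 value was not tested, and fewer cells of a type cannot be told apart from less RNA per cell in bulk tissue.

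Xbp1 and Atf6 are transcription factors of the ER response. Xbp1, the mRNA spliced by IRE1, was at 4.51, 4.45 and 4.55 in KO samples, against 4.31, 4.33 and 4.42 in WT samples. The groups did not overlap, and the lowest KO sample was close to the highest WT sample. The difference was 0.15 ± 0.06 (adjusted p = 0.408 by limma) and 0.16 within slide 1. The probe does not distinguish spliced from unspliced Xbp1 as far as the files say. Atf6 was at −0.36, −0.37 and −0.37 in KO samples, against −0.49, −0.29 and −0.93 in WT samples. The KO samples were nearly equal and lay inside the WT range, with a difference of 0.20 ± 0.17 that became 0.02 without WT 3.

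Atf4, the central factor of the integrated stress response, was at 5.00, 5.12 and 5.03 in KO samples, against 4.97, 5.20 and 5.01 in WT samples. The groups overlapped throughout, with a difference of −0.0080 ± 0.085. Among its targets, Ddit3, the pro-apoptotic factor CHOP, was at 0.33, 0.17 and 0.24 in KO samples, against −0.13, 0.26 and 0.08 in WT samples. Chac1, which breaks down glutathione, was at 0.37, 0.59 and 0.43 in KO samples, against 0.31, 0.37 and 0.35 in WT samples. For Ddit3 the groups overlapped, while for Chac1 they met almost exactly, KO 1 lying just above WT 2. The differences were 0.18 ± 0.11 and 0.12 ± 0.08. That of Ddit3 was 0.08 without WT 1, and that of Chac1 was 0.06 without KO 2 and 0.03 within slide 1.

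Asns, which makes asparagine, was at 3.96, 4.07 and 4.03 in KO samples, against 3.97, 3.91 and 3.94 in WT samples. KO 1 lay inside the WT range and the other KO samples above it, with a difference of 0.08 ± 0.06. Sesn2, a sensor of leucine, differed by 0.05 ± 0.07. Trib3, a pseudokinase that dampens ATF4 signalling, differed by −0.21 ± 0.25, and its highest value by far was that of WT 3, without which the difference was 0.08.

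**Figure D2:**
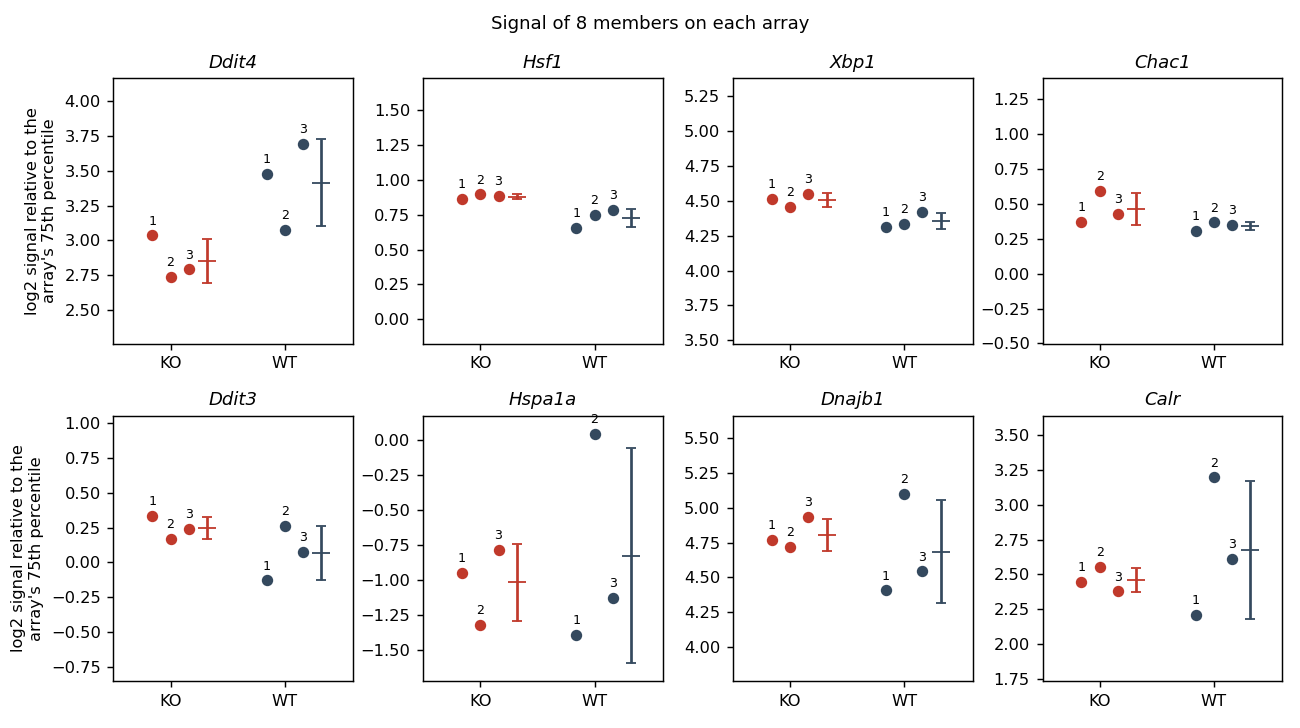
Signal (vertical axis, log2 relative to the array's 75th percentile, every panel spanning 1.9 log2 units) of 8 genes on each array. KO samples are red and WT samples dark blue, numbers are replicate numbers, and bars show the mean ± SD of 3 samples. Ddit4, Hsf1, Xbp1 and Chac1 have groups that do not overlap, whereas WT 2 is the highest sample for Hspa1a, Dnajb1 and Calr.

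Probes of one gene gave unlike values in the case of Ern1. Its brightest probe (mm9 chr11:106258948-106259007) was at −3.60, −3.43 and −3.63 in KO samples, against −3.62, −3.71 and −3.72 in WT samples. The groups overlapped through KO 3 and WT 1, and the difference was 0.13 ± 0.08. A second probe (mm9 chr11:106275124-106275183), annotated to another transcript, was at −6.84, −7.36 and −7.64 in KO samples, against −6.55, −6.79 and −6.72 in WT samples. There all KO samples lay below all WT samples, with a difference of −0.59 ± 0.21 (adjusted p = 0.375 over 31940 probes by limma). Of the other 2 Ern1 probes, 1 was well above background on 0 KO and 2 WT arrays, and the other on 0 KO and 0 WT arrays. Neither was tested. Of all probes tested, 19.2% had groups that did not overlap. Among the 10 members with several tested probes, the sign differed for Atf4, Ern1 and Hspe1, and the gap between probes was under 0.2 for 8, the exceptions being Ern1 and Dnajb9 (0.08 and 0.33).

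The members varied most among the WT samples, and in a common pattern. Of the 37 members with a value on all 6 arrays, 18 were highest on WT 2 (48.6%, against 16.2% of all genes), and 24 were lowest on WT 1 (64.9%, against 11.0% of all genes). By role, the highest value was on WT 2 for 8 of 12 cytosolic genes, 3 of 3 mitochondrial genes and 5 of 12 ER genes, but for 2 of 10 regulators. The lowest value was on WT 1 for 10 of 12 ER genes, 7 of 12 cytosolic genes, 2 of 3 mitochondrial genes and 5 of 10 regulators. The SD over KO samples was below that over WT samples for 30 of the 37 members (81.1%, against 63.3% of all genes). These arrays were chosen for description after their values were seen.

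The size of the pattern is given by role. The excess of WT 2 over the mean of WT 1 and WT 3 had a median of 0.27 for cytosolic genes, 0.20 for mitochondrial genes and 0.25 for ER genes, against −0.017 for regulators and −0.027 for all genes. It was 1.31 for Hspa1a, 0.82 for Cryab, 0.78 for Calr, 0.63 for Dnajb1 and 0.50 for Pdia4. By the brightest tested probe of each gene, Hspa1a had the widest range of all members over the 6 arrays, 1.44. Canx, over 5 arrays, had the narrowest, 0.079. Relative to the WT mean, the median cytosolic gene lay at −0.063, 0.017 and 0.044 on KO 1 to 3, against −0.11, 0.18 and −0.079 on WT 1 to 3. The median ER gene lay at 0.076, −0.0020 and 0.058 on KO 1 to 3, against −0.17, 0.13 and −0.042 on WT 1 to 3. The KO samples thus fell between WT 1 and WT 2 for both roles, and they did so for the median mitochondrial gene as well. The median regulator lay at 0.024, 0.12 and 0.069 on KO 1 to 3, against −0.0025, −0.011 and 0.0020 on WT 1 to 3. For that role all KO samples lay above all WT samples.

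**Figure D3:**
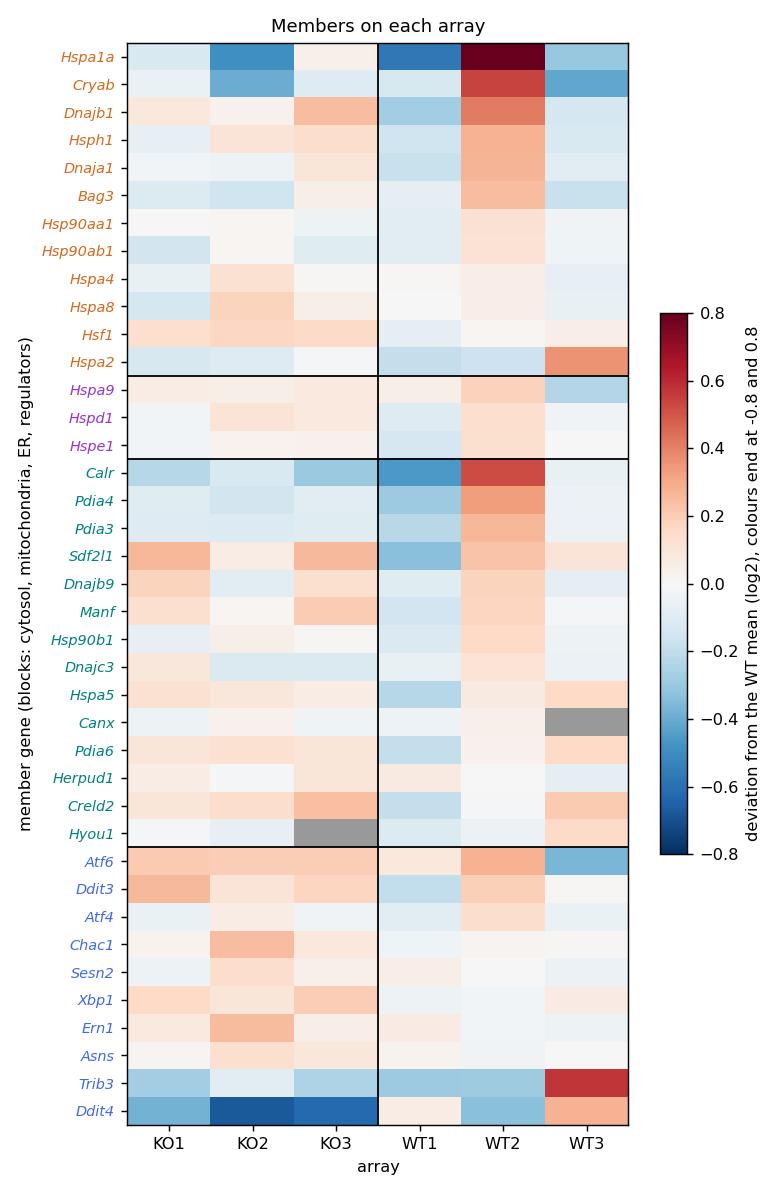
Deviation of each member from its own WT mean (colour, log2) on each array, with KO samples on the left and WT samples on the right, in blocks by role and ordered within a block by the value on WT 2. Grey marks a spot left out by the extraction software's flags. Red on WT 2 and blue on WT 1 run through the cytosolic, mitochondrial and ER blocks. Both are absent from much of the regulator block, although 5 of its 10 genes were lowest on WT 1. Hspa1a on WT 2 (0.87) is beyond the end of the scale.

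Other genes differed between the same WT samples. Mog, a myelin gene of oligodendrocytes, was at −0.77, −1.41 and −1.09 in KO samples, against −0.67, −0.16 and −1.10 in WT samples. Mag, another such gene, was at 2.89, 2.17 and 2.69 in KO samples, against 2.86, 3.46 and 2.27 in WT samples. Both were highest on WT 2 with groups that overlapped. Mbp, which encodes myelin basic protein, was at 3.47, 3.34 and 3.36 in KO samples, against 2.94, 3.21 and 3.03 in WT samples. There all KO samples lay above all WT samples, with a difference of 0.33 ± 0.09 (unadjusted p = 0.011 and adjusted p = 0.301 by limma). Rbm3 and Cirbp, RNA-binding genes that are raised by cooling, were highest on WT 1, with medians of 0.087, −0.39 and −0.18 on KO 1 to 3, against 0.31, −0.20 and −0.11 on WT 1 to 3. The part of cell make-up or body temperature in the WT pattern was not tested.

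The wider pathway was read from a list of genes that are not members. Of 33 other folding helpers, 21 were higher and 12 lower in KO, with a median of 0.020, and 1 had an unadjusted p under 0.05. Of 36 other ER and stress genes measured, 19 were higher and 17 lower, with a median of 0.00057, and 1 had an unadjusted p under 0.05. Over all genes, 12.5% had an unadjusted p under 0.05, a larger share than in either list. The adjusted p of each of these genes was above 0.05, the smallest being 0.335. On WT 2 the median folding helper lay 0.13 above its WT mean, and the median of the other ER and stress genes lay at −0.012.

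In these lists 3 genes were higher and 4 lower in KO with groups that did not overlap, against 7.56% higher and 12.1% lower over all genes, and the rule for naming takes all of them. Dnajb5, an Hsp40, was at 3.80, 3.92 and 3.91 in KO samples, against 3.74, 3.71 and 3.58 in WT samples. Cct5, a subunit of the cytosolic chaperonin, differed by 0.09 ± 0.05, and Eif2ak1, the haem-sensing kinase of the integrated stress response, by 0.09 ± 0.07. The 4 lower genes were Txndc5, Atf5, Hspb8 and Sil1. Txndc5, an ER disulfide isomerase, was at −1.40, −1.64 and −1.60 in KO samples, against −1.36, −1.10 and −1.20 in WT samples. Its difference was −0.33 ± 0.10 and that of Dnajb5 was 0.20 ± 0.08, with adjusted p-values of 0.335 and 0.382 by limma. Atf5, a stress-induced transcription factor, differed by −0.17 ± 0.08, Hspb8, a small heat shock protein, by −0.22 ± 0.11, and Sil1, the nucleotide exchange factor of BiP, by −0.11 ± 0.06. Eif2ak3, which encodes PERK, differed by 0.04 ± 0.06, so that the genes of the ER sensors differed by 0.04 (Eif2ak3), 0.13 (Ern1, brightest probe) and 0.20 (Atf6, 0.02 without WT 3), none past the threshold.

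**Figure D4:**
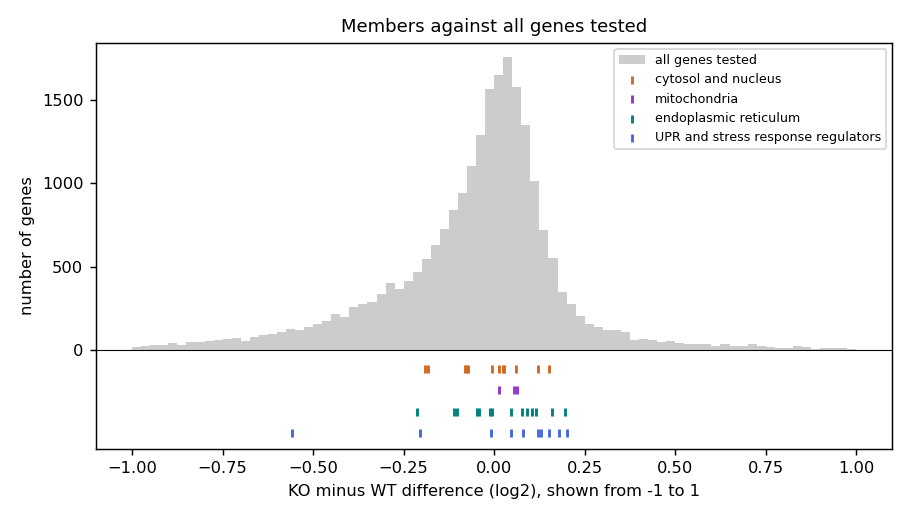
Number of genes (vertical axis) by difference between KO and WT (horizontal axis, log2, shown from −1 to 1) for all genes tested in grey, with a tick below the axis for each member, coloured by role. The members lie within the bulk of all genes, and the tick farthest to the left is Ddit4 at −0.56.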

How the data were processed

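Total RNA (200 ng per sample, per the labels' protocols) was labelled with Cy3. The deposited files hold the spot intensity extracted by Agilent Feature Extraction 12.1.1.1 with probe positions on mm9, per the file headers and the submitters' processing notes. The processed intensity had been background-subtracted by the authors' software, and the dimmest spots (2368 to 3150 per array) carry a surrogate value, per the file headers, so that differences of dim probes depend on that step.

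Spots marked as non-uniform or population outliers (68 to 530 per array) and 1377 control spots were left out. The log2 of the intensity minus each array's 75th percentile was averaged over spots of a probe. A probe was kept if all 3 arrays of either genotype had it well above background and each genotype had at least 2 values (31940 of 39429 probes). Names came from the array design, updated through RefSeq accessions (29510 probes matched), and a probe with no symbol kept its identifier as its gene. The brightest tested probe stood for a gene. KO and WT were compared with limma 3.58.1 in R 4.3.3 (lmFit, eBayes, no covariate), two-sided, with Benjamini-Hochberg adjustment over 23851 genes at 0.05, and the code was tested on simulated data. The exact permutation test was not used, since 3 against 3 cannot give a p below 0.1.

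Values were printed for the 14 members with the smallest p and for 11 names fixed by role, and for up to 4 other pathway genes per direction with groups that did not overlap. Members and lists were chosen with earlier results of these data known. Alternatives covered scaling, background correction, the dim-probe filter, probes of a gene, slide, replicate number and each sample left out. The number of arrays limits the precision. One oligodendrocyte marker is not reported here.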

Additional observations from a re-analysis of the deposited data

How the results depend on the processing

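Under each of the 16 alternatives no member had an adjusted p under 0.05, and 13 of 39 members kept the sign of their difference in all of them, Ddit4, Hsf1 and Xbp1 included. Over all genes 0 passed in every setting except without KO 1, where 76 did (range 0 to 76). The number of members at an unadjusted p under 0.05 by limma (1) was 2 with quantile normalization, 7 with median centring, 3 with normexp and 2 with slide as a random block. In the same order, 10.8%, 16.6%, 12.5% and 14.2% of all genes were under 0.05. The member count was 0 with slide as a fixed block (5.48% of all genes). With a sample left out it was 0 to 4 (7.16% to 15.5% of all genes). Members whose groups did not overlap (4) numbered 10 with median centring and 5 to 12 with a sample left out, which leaves fewer values to overlap. For these overlap counts the share of all genes is not given. Whether the members exceed that share in these settings was therefore not tested. Other pathway genes at an unadjusted p under 0.05 by limma (2) numbered 4 with the mean over probes (12.6% of all genes). They numbered 1 with the fixed slide block and 0 to 5 with a sample left out.

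Median centring moved the median of all genes to 0.104, and with it the medians to 0.147 for all members, 0.173 for mitochondrial, 0.139 for ER and 0.218 for regulator genes. It made the differences of Hsp90aa1 0.111, Hsp90ab1 0.041 and Atf4 0.110. Of all genes at an unadjusted p under 0.05, 75.1% were lower in KO, against 51.0% with quantile normalization, 29.1% with median centring and 80.4% with normexp. The regulator median was 0.063 with the mean over probes, 0.024 with the fixed slide block, 0.024 within slide 1 and 0.055 to 0.123 with a sample left out. With the mean over probes Atf4 became 0.038 and Ern1 −0.23. The fixed slide block and the values within slide 1, which both compare KO 1 alone with the WT samples, gave −0.139 for Hspa8 and 0.00093 for Hsp90aa1. Samples left out turned Atf4 (−0.052 to 0.063), Hspa8 (−0.047 to 0.112), Hsp90aa1 (−0.053 to 0.052), Hspa5 (−0.024 to 0.170), Hspa1a (−0.476 to 0.246) and Calr (−0.445 to 0.047). Members highest on WT 2 numbered 16 to 18 and lowest on WT 1 20 to 24 under 6 of these settings, counts that were added after seeing the data. In the same settings 15.3% to 23.7% of all genes were highest on WT 2 and 9.7% to 16.4% lowest on WT 1. Apart from the samples left out, the cause of these changes was not tested.

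The replicate numbers did not pair the samples: same-numbered samples had deviations correlated at −0.0256, −0.138 and −0.108. With the replicate block 0 genes passed, 1 member and 1 other pathway gene had an unadjusted p under 0.05, and no member changed its call.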
